A study of Mus musculus with 6 samples.

Results

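The cytochrome P450 genes are the rows of the count table whose symbol begins with Cyp, a family number, a subfamily letter and a gene number. Cyp24a1, Cyp27b1 and pseudogene names were left out by the rule, and 96 of the 25031 genes counted met it. They were measured by RNA sequencing in kidneys of wild-type (WT) male C57BL/6 mice, a common inbred strain, at 7 to 8 weeks of age. Blood flow to the 2 kidneys of each animal was stopped for 23 minutes and then restored, a model of acute kidney injury, at a core temperature of 37 °C. The groups were 3 libraries from mice given 5 mg/kg of (+)CePPy into a vein straight after the injury, called CePPy here, and 3 from mice given the same volume of saline, the vehicle. (+)CePPy is a cerium-doped polypyrrole nanoparticle with a positive charge. The comparison asks how the treatment was related to P450 expression in the injured kidney. No uninjured kidney was analysed here, and the sources used here give no time of collection. Whether each library is a separate animal is not in the labels, so a p-value covers only the spread between libraries, which may be technical.

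Cytochrome P450 enzymes are heme proteins that insert an oxygen atom into fats, steroids, vitamins, drugs and toxins. Most sit in the endoplasmic reticulum and take electrons from P450 oxidoreductase, while a few work in mitochondria with ferredoxin. In the kidney they are best known in the proximal tubule, where Cyp2c and Cyp2j enzymes turn arachidonic acid into epoxides, Cyp4a enzymes hydroxylate it and other fatty acids at the far end of the chain, and other members handle steroids, sterols and foreign compounds. Many mouse subfamilies lie in clusters of close copies, and expression of several differs between the sexes.

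In CePPy kidneys Cyp2e1, all 4 tested Cyp2d genes, 3 of 5 tested Cyp2j genes and 4 of 6 tested Cyp4a genes had higher mean levels than in vehicle kidneys, whereas the close pair Cyp4a12a and Cyp4a12b had lower ones. Cyp2e1, which oxidises ethanol and other small molecules, had the largest difference, a log2 fold change of 2.30 ± 0.38 (SE), with 555 ± 326 CPM in CePPy and 113 ± 17.3 CPM in vehicle (SD, n = 3 each). CPM scales each count to the size of its library. None of these differences passed the main test, which ran over 15416 genes, and the highest values were mostly those of CePPy library 1.

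Of the 96 genes, 40 passed the filter on low counts, and they came from 10 of 15 families and 22 of 36 subfamilies. A further 32 had 0 counts in all 6 libraries, and 24 had some counts, at most 18 in any library. Total counts per library ranged from 29762157 to 37415213, so that 1 count was worth 0.0266 to 0.0333 CPM, and a count of 0 allows a level of up to 0.0798 to 0.10 CPM per library (3 counts; counting error only). Family Cyp2 had 18 of 48 members tested, Cyp4 had 13 of 20, Cyp3 had 1 of 9, and Cyp1 had 2 of 3. Genes for steroid hormone synthesis in adrenal and gonad were near or at 0: Cyp11a1 had 2 counts in all libraries together, Cyp11b1 had 4 and Cyp17a1 had 4. Of the liver bile acid genes, Cyp8b1 had 27 counts and Cyp7a1 had 0. Cyp3a11, a main drug-metabolising P450 of mouse liver, had 42 counts.

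Levels were compared between genes per kilobase of exon, and Cyp4b1 and Cyp2j5 led in both groups. Cyp4b1, a fatty acid hydroxylase of extrahepatic tissue, was first with a mean level of 565 CPM per kilobase in CePPy and 439 in vehicle. Cyp2j5, an arachidonic acid epoxygenase abundant in mouse kidney, was second with a level of 440 in CePPy and 258 in vehicle. Cyp4a10 followed over both groups with a level of 190 in CePPy and 122 in vehicle. Cyp2e1 had a level of 257 CPM per kilobase in CePPy, above Cyp4a10, and of 52.3 in vehicle, below it. The lowest level of the 40 tested genes was that of Cyp46a1, a sterol hydroxylase known from brain, with 0.192 CPM per kilobase in CePPy and 0.105 in vehicle.

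**Figure D1:**
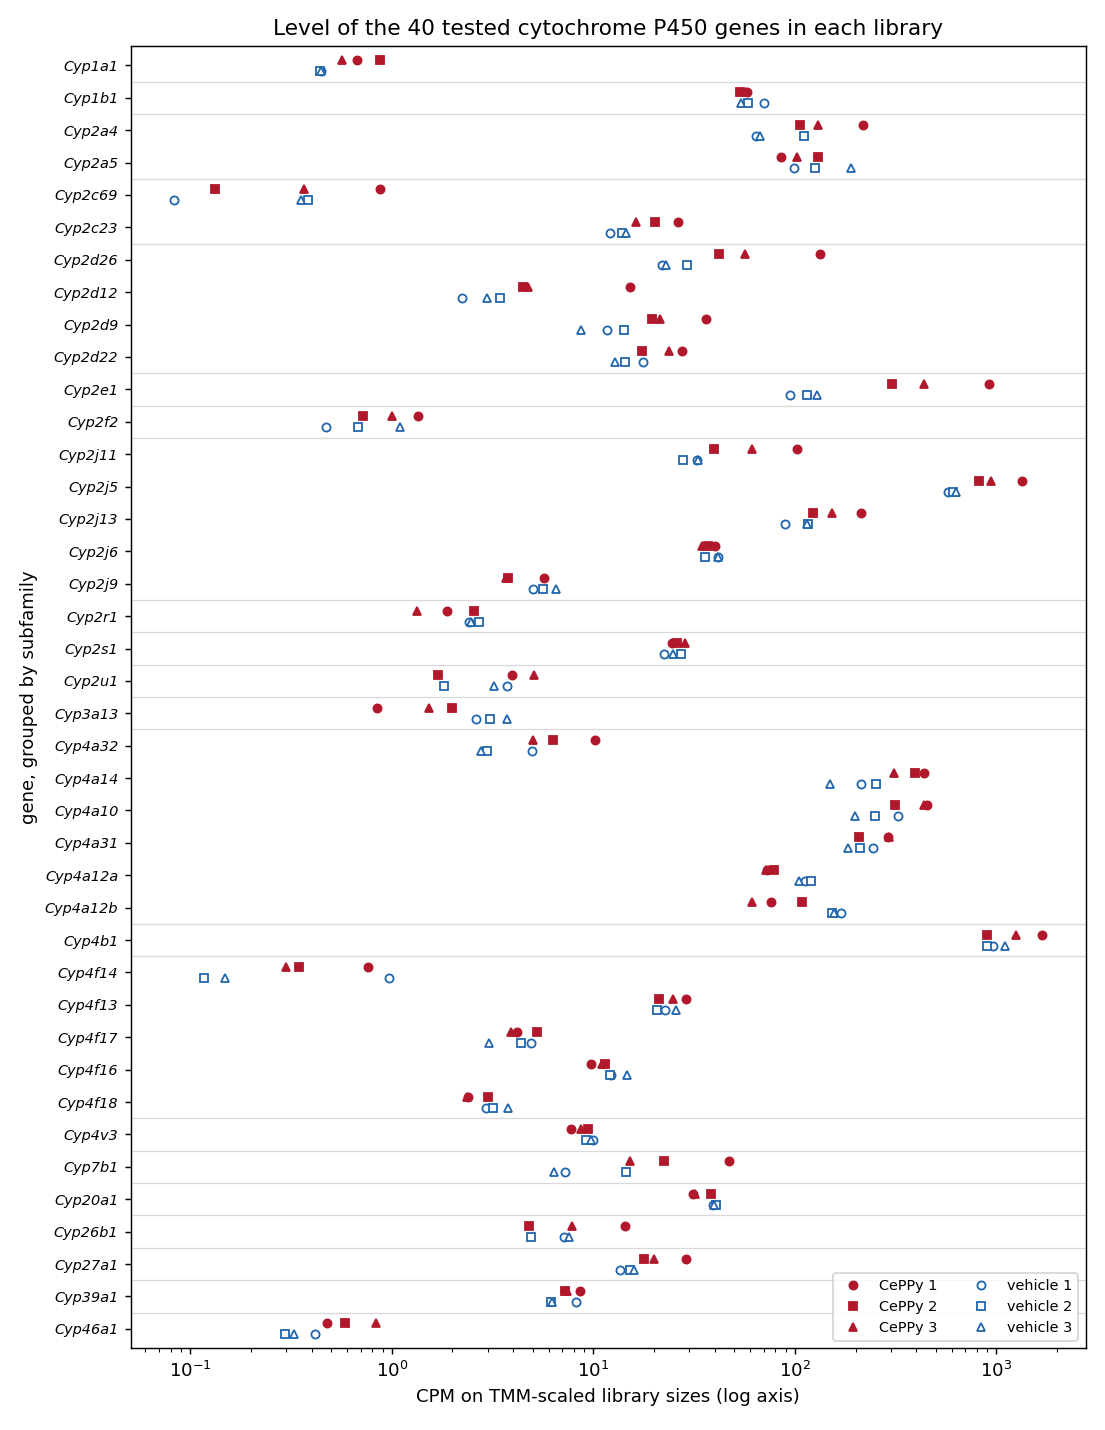
Level of each of the 40 tested P450 genes in each library, as CPM on a log axis, with genes grouped by subfamily; filled red symbols are CePPy libraries and open blue symbols vehicle libraries. Cyp4b1 and Cyp2j5 lie furthest right, and for Cyp2e1 the CePPy points at 304 to 923 CPM stand clear of the vehicle points at 94.4 to 129 CPM.

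Summed over the 96 genes, P450 transcripts made up 6465, 3904 and 4635 CPM in CePPy libraries 1, 2 and 3, against 3331, 3337 and 3403 CPM in vehicle libraries 1, 2 and 3. No vehicle library reached the lowest CePPy library, and the CePPy libraries were spread far more widely, with a mean of 5001 ± 1319 CPM in CePPy and 3357 ± 39.95 CPM in vehicle (SD, n = 3 each). An exact permutation test of 3 libraries against 3 cannot give a two-sided p below 0.1, and no p is given for this sum. Cyp4b1 was the top gene in every library. Cyp2e1 took 14.28%, 7.80% and 9.42% of the P450 total in CePPy libraries 1, 2 and 3, and 2.83%, 3.46% and 3.78% in vehicle libraries 1, 2 and 3.

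**Figure D2:**
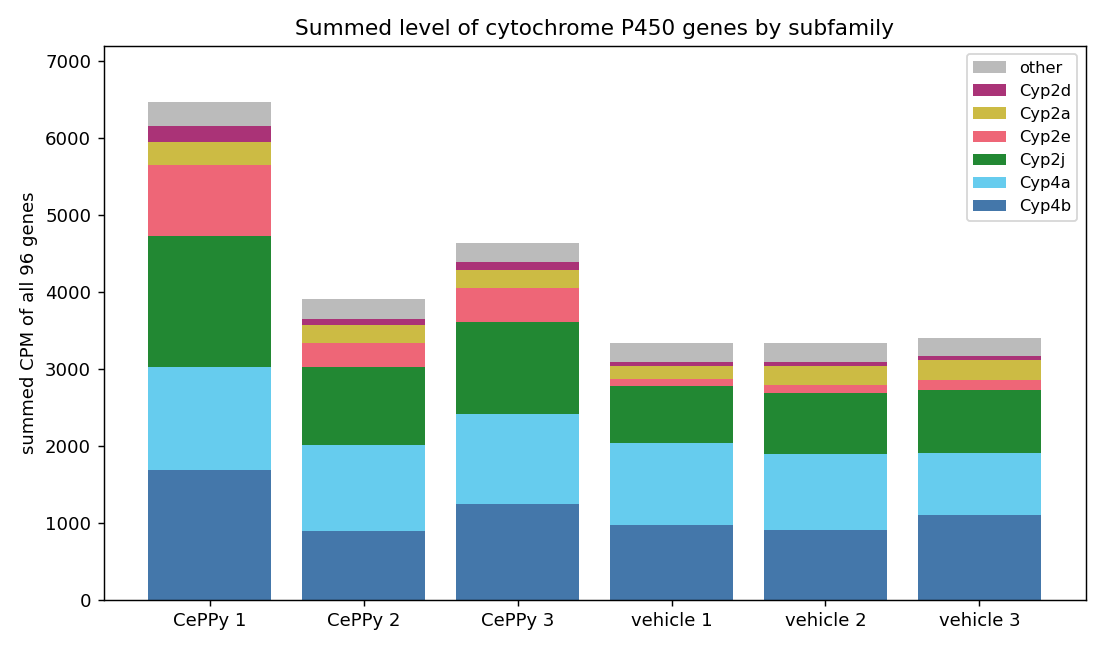
Summed CPM of all 96 P450 genes in each library, stacked by subfamily, from Cyp4b at the bottom to the remaining subfamilies at the top. The CePPy bars reach 6465, 3904 and 4635 CPM and the vehicle bars 3331 to 3403 CPM, and the Cyp2e segment is thicker in each CePPy bar than in any vehicle bar.

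The quasi-likelihood test of edgeR, adjusted over all genes tested by the Benjamini-Hochberg method at a threshold of 0.05, called 0 of the 40 P450 genes higher in CePPy (0% of all genes) and 0 lower (0.00649% of all genes, which is 1 gene). At an unadjusted p under 0.05, 15 of the 40 were higher (37.5%, against 9.65% of all genes) and 4 were lower (10%, against 9.37% of all genes). The share on the high side was thus above the background, and that on the low side was close to it. The CePPy and vehicle libraries did not overlap for 14 genes that were higher (35.0%, against 12.3% of all genes) and 5 that were lower (12.5%, against 14.0% of all genes). DESeq2, run on the same counts, called 11 of the 40 higher (27.5%, against 3.40% of all genes with an adjusted p) and 2 lower (5.00%, against 3.20%). Among the edgeR fits with 1 library left out, only the one without CePPy library 2 called any P450 gene. It called 7 of 41 tested P450 genes higher (17.1%, against 2.98%) and 2 lower (4.88%, against 2.19%). CePPy library 2 had the lowest P450 sum of its group, so this fit is not independent support for the calls. The genes that only some of these tests called are therefore given below with the values of both tools.

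Of the 40 tested genes, 28 had a log2 fold change above 0 (70%, against 50.5% of all genes tested). Their median log2 fold change was 0.41, within a range of -1.10 to 2.30, and the median of all genes was 0.003. Without CePPy library 1 the median of the P450 genes was 0.18. Set against the vehicle mean on a log2 scale, the median P450 gene stood at 0.64, 0.08 and 0.31 in CePPy libraries 1, 2 and 3, and at -0.025, -0.015 and 0.013 in vehicle libraries 1, 2 and 3. Among the 14 genes that were higher without overlap, CePPy library 1 held the highest value in 12, and CePPy library 2 the lowest CePPy value in 8.

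Markers of the proximal tubule moved with this pattern. All 15 genes of that list were tested and all 15 had a log2 fold change above 0, with a median of 0.57 and 0 called by edgeR. Of the 15, 7 were higher without overlap (against 12.3% of all genes). DESeq2 called Slc34a1, Slc13a3, Slc22a7, Slc22a8 and Aqp1 higher (adjusted p 0.0391, 0.027, 0.039, 0.000733 and 0.000396). It called 3.40% of all genes with an adjusted p higher. The summed level of all 15 genes was 27460, 14560 and 18690 CPM in CePPy libraries 1, 2 and 3, and 14120, 13940 and 15680 CPM in vehicle libraries 1, 2 and 3. CePPy library 1 was the highest in this sum, as in the P450 sum, and CePPy library 2 lay within the vehicle range. Of 8 genes of tubular injury, 7 had a log2 fold change below 0, with a median of -0.67, and Vcam1 had 0.38. Their summed level was 17350, 33520 and 25780 CPM in CePPy and 30810 to 31640 CPM in vehicle. Most of it came from Spp1, whose groups overlapped. Spp1 had 14480, 26820 and 21000 CPM in CePPy libraries 1, 2 and 3, and 23070 to 24110 CPM in vehicle. Of the 8, 5 were lower without overlap (against 14.0% of all genes) and 0 were called by edgeR. DESeq2 called Havcr1 and Sox9 lower (adjusted p 0.015 and 0.00116), and it called 3.20% of all genes with an adjusted p lower. The part of these markers in the P450 differences was not tested, and in whole tissue fewer cells of a type and less RNA per cell cannot be told apart.

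Markers of other cell types gave a mixed picture. The 8 liver markers, 6 of them tested, summed to 213.5 to 315.4 CPM in CePPy and 230.3 to 330.3 CPM in vehicle. Of the 6 tested, 4 had a log2 fold change above 0, with a median of 0.33. Of these 6, 3 were higher without overlap (against 12.3% of all genes). Serpina1a, a protease inhibitor, had a log2 fold change of 1.6 ± 0.28 (SE; adjusted p 0.0830 in edgeR, 9.25e-07 in DESeq2), and Ttr, a thyroid hormone carrier, had 1.09 ± 0.31 (SE; adjusted p 0.145 in edgeR, 0.00887 in DESeq2). Fgb had the lowest log2 fold change of the liver list, -0.78 ± 0.42 (SE; adjusted p 0.351 in edgeR, 0.481 in DESeq2), with overlapping groups. The albumin gene Alb had 5.08 to 5.29 CPM in CePPy and 3.79 to 6.09 CPM in vehicle. Of the 8 adrenal markers, Nr5a1, Th, Dbh and Pnmt were at 0 in every library, and the list summed to 6.40 to 8.38 CPM in CePPy and 8.65 to 9.11 CPM in vehicle. The median log2 fold change was 0.03 for 7 endothelial genes, -0.06 for 8 genes of smooth muscle, mesangium and fibroblast, and -0.12 for 5 macrophage genes. The second of these lists held both directions: the smooth muscle genes Acta2 and Tagln were lower without overlap, with log2 fold changes of -0.79 and -0.80, and Dcn, a matrix gene of fibroblasts, was higher without overlap, with 0.89 (DESeq2 adjusted p 0.000507 for Acta2, 1.11e-07 for Tagln and 0.00243 for Dcn). The part of these lists in the P450 differences was not tested. All 5 genes of collecting duct and urothelium had a log2 fold change above 0, with a median of 1.13. Their summed level was 191.6 to 287.6 CPM in CePPy and 96.5 to 153.0 CPM in vehicle, most of it from Aqp2. Only 2 of them, Aqp2 and Avpr2, were higher without overlap (against 12.3% of all genes). Aqp2 had 0.80 ± 0.20 (SE; adjusted p 0.118 in edgeR, 0.002 in DESeq2). Avpr2 had 1.17 ± 0.27 (SE; adjusted p 0.116 in edgeR, 0.00499 in DESeq2). Upk1a, Upk3a and Upk1b overlapped, with 1.29 ± 0.87, 1.13 ± 0.90 and 0.85 ± 0.77 (SE).

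**Figure D3:**
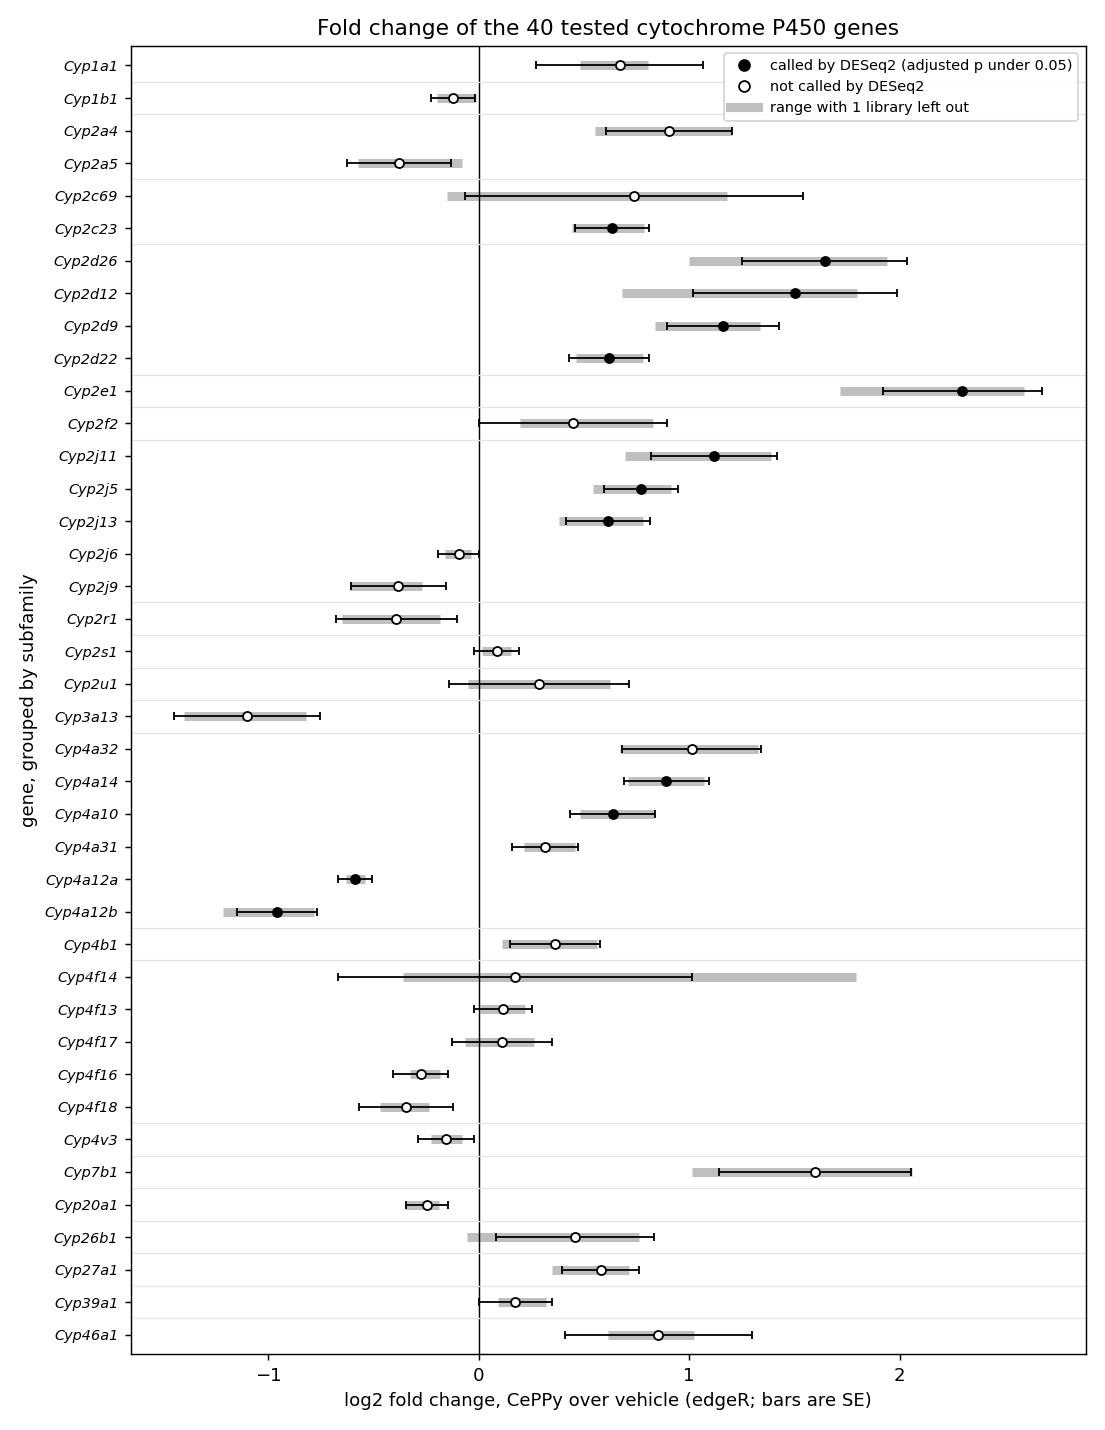
Log2 fold change of CePPy over vehicle for each of the 40 tested P450 genes, with the SE as a bar and the range of the value with 1 library left out in grey; filled points were called by DESeq2. Values run from -1.10 for Cyp3a13 to 2.30 for Cyp2e1, and 28 of 40 points lie right of 0.

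Cyp2e1 had the largest log2 fold change of the tested P450 genes. This enzyme oxidises ethanol, acetone and paracetamol and is known to leak reactive oxygen while doing so. Its level was 923, 304 and 437 CPM in CePPy libraries 1, 2 and 3, against 94.4, 115 and 129 CPM in vehicle libraries 1, 2 and 3. Every CePPy library lay above every vehicle library, and CePPy library 1 was far above the other CePPy libraries. Its log2 fold change was 2.30 ± 0.38 (SE), with an adjusted p of 0.0813 in edgeR and 0.000507 in DESeq2. Without CePPy library 1 the log2 fold change was 1.72, and over all single libraries left out it ran between 1.72 and 2.59. Of the 100-base stretches of its transcript, 1.5% occur in another gene, so its counts depend little on how shared reads were assigned.

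The gene lies on chromosome 7 at 140763739-140774987, plus strand, of GRCm38 (GENCODE M21). The window from 250 bases before to 50 after the start that RefSeq gives is shown for Cyp2e1 and for Cyp2d26, the tested P450 genes with the largest log2 fold changes, at chr7:140763569-140763868 on the plus strand and chr15:82794196-82794495 on the minus strand of GRCm38.p6, 5′ to 3′. Capitals mark, on either strand, the TATA box letters TATAAA, the nuclear receptor half-site AGGTCA and the HNF1 half-site GTTAAT.
Cyp2e1 promoter: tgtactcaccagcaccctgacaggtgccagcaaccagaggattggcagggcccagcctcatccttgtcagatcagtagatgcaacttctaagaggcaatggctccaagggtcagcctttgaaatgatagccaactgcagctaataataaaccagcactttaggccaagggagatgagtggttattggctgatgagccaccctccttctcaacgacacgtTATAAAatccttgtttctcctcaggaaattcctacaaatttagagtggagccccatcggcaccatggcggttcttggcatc
Cyp2d26 promoter: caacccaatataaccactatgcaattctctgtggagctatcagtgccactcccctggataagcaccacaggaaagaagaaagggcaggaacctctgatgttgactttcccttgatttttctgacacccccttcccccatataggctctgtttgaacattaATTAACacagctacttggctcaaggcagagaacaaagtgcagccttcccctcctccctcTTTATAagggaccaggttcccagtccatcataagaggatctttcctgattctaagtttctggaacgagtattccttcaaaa
In Cyp2e1, TATAAA begins 31 bases before the start on the printed strand. In Cyp2d26 the TATA box letters and GTTAAT lie on the other strand. They are printed there as TTTATA, from 31 bases before the start, and ATTAAC, from 90 bases before it. RefSeq windows were matched for 28 of the 40 tested genes, in 32 entries, since some genes have several starts. TATAAA occurs on either strand in 10 of these 32 and in 13.6% of all 32851 windows of the same length. GTTAAT occurs in 6 of 32 and in 7.1% of all windows, and AGGTCA in 4 of 32 and in 16.3%. A match describes the letters of the window and not a bound site.

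The Cyp2d subfamily, drug and steroid hydroxylases in a cluster on chromosome 15, had 4 of 8 members tested, and all 4 had a log2 fold change above 0. Its summed level was 212, 83.5 and 107 CPM in CePPy libraries 1, 2 and 3, against 53.4, 61.2 and 47.4 CPM in vehicle libraries 1, 2 and 3. Every CePPy sum was above every vehicle sum, and the log2 ratio of the means was 1.31, or 0.82 without CePPy library 1. DESeq2 called all 4 tested members higher, and edgeR called none of them.

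Cyp2d26 was the largest of these differences. It had 133, 41.9 and 56.8 CPM in CePPy libraries 1, 2 and 3, against 22.0, 29.3 and 22.9 CPM in vehicle libraries 1, 2 and 3. Again the groups did not overlap, and CePPy library 1 was far above either of the other CePPy libraries. The log2 fold change was 1.64 ± 0.39 (SE), with an adjusted p of 0.117 in edgeR and 0.0287 in DESeq2, and it was 1.0 without CePPy library 1. Cyp2d9, a testosterone hydroxylase known as male-specific in mouse liver, had 36.2, 19.6 and 21.4 CPM in CePPy and 11.6, 14.2 and 8.70 CPM in vehicle, with no overlap. Its log2 fold change was 1.16 ± 0.27 (SE), with an adjusted p of 0.114 in edgeR and 0.000947 in DESeq2.

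Cyp2d12, whose transcript is 91.5% identical to that of Cyp2d9, rests more on a single library. It had 15.2, 4.49 and 4.73 CPM in CePPy libraries 1, 2 and 3 and 2.23, 3.44 and 2.97 CPM in vehicle libraries 1, 2 and 3. The groups did not overlap, but its log2 fold change of 1.5 ± 0.48 (SE; adjusted p 0.169 in edgeR, 0.0222 in DESeq2) was 0.68 without CePPy library 1. Only 3.79% of the 100-base stretches of Cyp2d12 occur in Cyp2d9. The sum of the pair, which does not depend on how reads were split between them, had a log2 ratio of 1.24 and did not overlap between groups. Cyp2d22, often treated as the mouse counterpart of human CYP2D6, had 27.6, 17.5 and 23.6 CPM in CePPy and 17.6, 14.3 and 12.8 CPM in vehicle. CePPy library 2 and vehicle library 1 met at about the same level, and the log2 fold change was 0.62 ± 0.19 (SE; adjusted p 0.158 in edgeR, 0.0453 in DESeq2).

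**Figure D4:**
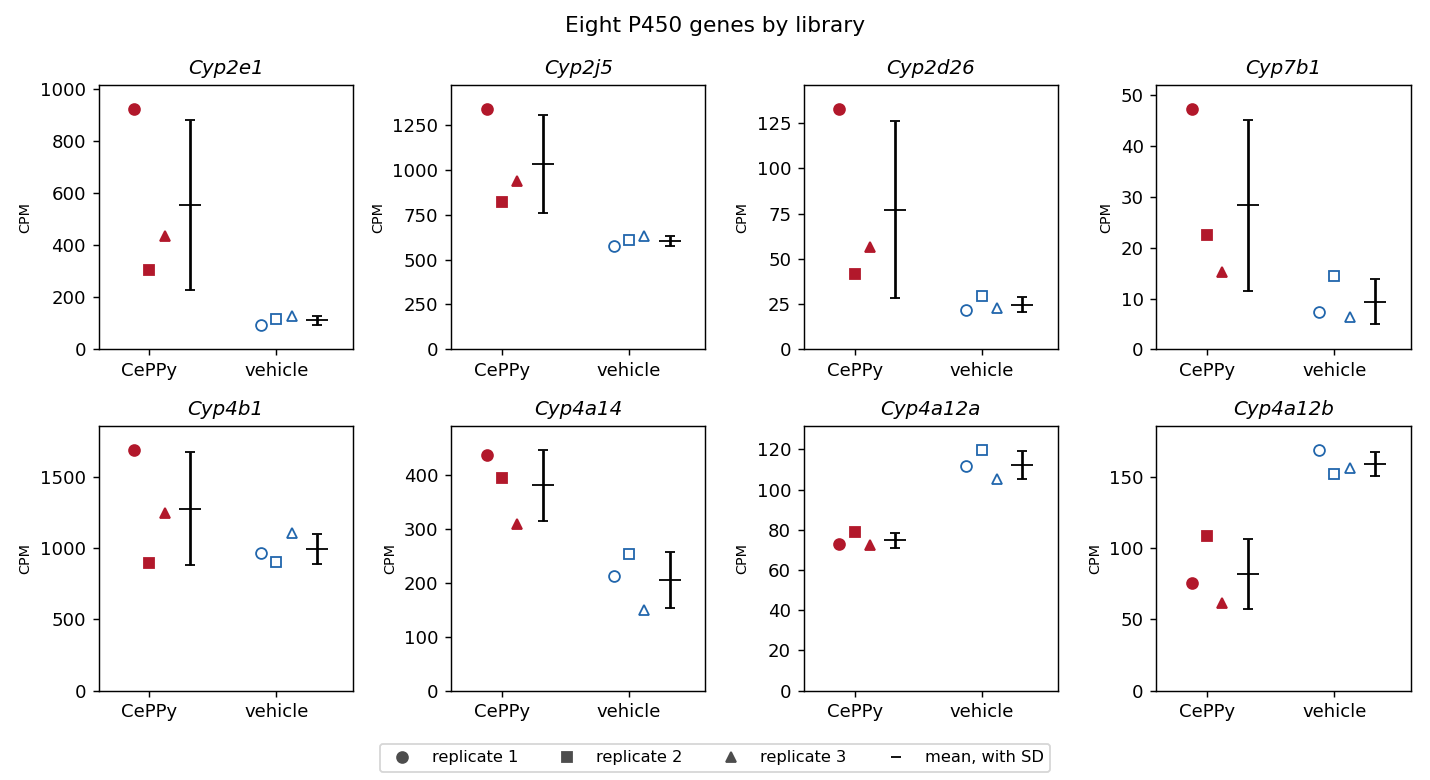
CPM of 8 P450 genes in each library, CePPy left and vehicle right in each panel, with the mean and SD of 3 libraries beside the points. Cyp2e1, Cyp2j5, Cyp2d26, Cyp7b1 and Cyp4a14 are higher in CePPy without overlap, Cyp4b1 overlaps, and Cyp4a12a and Cyp4a12b are lower in CePPy without overlap, at 72.3 to 79.1 against 105 to 120 CPM for Cyp4a12a.

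Among the epoxygenases, Cyp2j5 carried most of the signal. It had 1338, 818 and 938 CPM in CePPy libraries 1, 2 and 3, against 575, 607 and 631 CPM in vehicle libraries 1, 2 and 3. Every CePPy library was above the vehicle range, which was narrow. In log2 terms the fold change was 0.77 ± 0.18 (SE), with an adjusted p of 0.113 in edgeR and 0.000586 in DESeq2, and it was 0.54 without CePPy library 1. None of the 100-base stretches of the Cyp2j5 transcript occurs in another gene.

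The Cyp2j genes lie side by side on chromosome 4, with 5 of 8 members tested, and they did not share 1 direction. Cyp2j11 had 102, 39.5 and 61.4 CPM in CePPy and 32.8, 27.8 and 33.1 CPM in vehicle, a log2 fold change of 1.12 ± 0.30 (SE) that was 0.69 without CePPy library 1. Cyp2j13 had 213, 124 and 154 CPM in CePPy and 88.9, 117 and 114 CPM in vehicle, a log2 fold change of 0.62 ± 0.20 (SE) that was 0.38 without CePPy library 1. Neither gene overlapped between groups, both were called by DESeq2 (adjusted p 0.00295 and 0.0342), and neither by edgeR (adjusted p 0.134 and 0.169). Cyp2j6 had log2 fold change -0.09 ± 0.10 (SE) and Cyp2j9 had -0.38 ± 0.23 (SE), both with overlapping groups. The subfamily summed to 1699, 1022 and 1191 CPM in CePPy and to 744, 793 and 826 CPM in vehicle, a log2 ratio of 0.73 without overlap.

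Cyp2c23, the arachidonic acid epoxygenase of the kidney tubule that is also named Cyp2c44, was the main Cyp2c gene of these kidneys. It had 26.2, 20.2 and 16.3 CPM in CePPy libraries 1, 2 and 3, against 12.1, 13.8 and 14.6 CPM in vehicle libraries 1, 2 and 3. All CePPy values were above the vehicle values, although CePPy library 3 was close to the vehicle range. Its log2 fold change was 0.63 ± 0.18 (SE), with an adjusted p of 0.139 in edgeR and 0.0294 in DESeq2. Of the 15 Cyp2c members, only Cyp2c69 was tested besides it, at 0.133 to 0.872 CPM in CePPy and 0.0835 to 0.383 CPM in vehicle. Its groups overlapped, its log2 fold change of 0.74 was -0.15 without CePPy library 1, and its transcript is 97.7% identical to Cyp2c40, so reads could be split between copies.

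The Cyp4a genes, the fatty acid hydroxylases, showed both directions within 1 cluster on chromosome 4. There Cyp4a12a, Cyp4a12b, Cyp4a14, Cyp4a10, Cyp4a31, Cyp4a32 and Cyp4b1 follow each other in that order among the tested genes. Cyp4a14 and Cyp4a10, known targets of the fatty acid receptor PPARα, had higher levels in CePPy, and Cyp4a12a and Cyp4a12b lower ones. Together the Cyp4a12 pair made up 11.1%, 16.9% and 11.4% of the Cyp4a sum in CePPy libraries 1, 2 and 3, against 26.3%, 27.5% and 32.9% in vehicle libraries 1, 2 and 3. The mean share was 13.1% ± 3.27 in CePPy and 28.9% ± 3.52 in vehicle (SD, n = 3 each), and every CePPy library was below every vehicle library.

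Cyp4a12a encodes the main enzyme of mouse kidney that makes the vasoconstrictor hydroxy acid of arachidonic acid, and it is known to be driven by androgen and higher in males. It had 72.8, 79.1 and 72.3 CPM in CePPy libraries 1, 2 and 3, against 112, 120 and 105 CPM in vehicle libraries 1, 2 and 3. The groups were apart and each was narrow, and CePPy library 1 was here not the extreme one. The log2 fold change was -0.59 ± 0.08 (SE), with an adjusted p of 0.0739 in edgeR and 1.10e-06 in DESeq2, and it stayed between -0.63 and -0.54 with any 1 library left out. Cyp4a12b had 75.7, 109 and 61.2 CPM in CePPy libraries 1, 2 and 3, against 169, 152 and 156 CPM in vehicle libraries 1, 2 and 3. Its groups did not overlap either, and its log2 fold change was -0.96 ± 0.19 (SE; adjusted p 0.10 in edgeR and 8.59e-05 in DESeq2).

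The transcripts of the pair are 98.2% identical, and 35.8% of the 100-base stretches of Cyp4a12a occur in Cyp4a12b. Their coding sequences are 1527 bases each and differ at 23. The stretch shown holds 7 of these differences, in capitals, and runs over coding positions 661 to 750, counted from the start codon, on the plus strand of GRCm38 at chr4:115326659-115326748 for Cyp4a12a and chr4:115432912-115433001 for Cyp4a12b. It was picked as the 90-base stretch of the coding sequence with the most differences, so no other stretch of that length tells the copies apart by more letters.
Cyp4a12a coding stretch: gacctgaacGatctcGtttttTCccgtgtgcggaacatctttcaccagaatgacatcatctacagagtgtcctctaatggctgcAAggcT
Cyp4a12b coding stretch: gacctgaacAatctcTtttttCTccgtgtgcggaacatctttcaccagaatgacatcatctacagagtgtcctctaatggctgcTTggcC
Cyp4a12b took 51.0%, 57.9% and 45.9% of the pair's counts in CePPy libraries 1, 2 and 3, and 60.1%, 56.0% and 59.8% in vehicle libraries 1, 2 and 3. These shares overlap between groups and are uncertain, since the sources used here do not say how reads with several matches were handled. The sum of the pair does not depend on how reads were split between the copies. It was 148.5, 187.7 and 133.5 CPM in CePPy libraries 1, 2 and 3, against 280.6, 271.8 and 261.9 CPM in vehicle libraries 1, 2 and 3, a log2 ratio of -0.79 with no overlap.

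Cyp4a14, a lauric acid hydroxylase known as female-biased in mouse kidney, had 438, 396 and 310 CPM in CePPy libraries 1, 2 and 3, against 213, 254 and 150 CPM in vehicle libraries 1, 2 and 3. The groups did not overlap, and no 100-base stretch of its transcript occurs in another gene. Its log2 fold change was 0.89 ± 0.20 (SE), with an adjusted p of 0.112 in edgeR and 0.000470 in DESeq2, and it was 0.71 or more with any 1 library left out. Cyp4a10 had 452, 314 and 435 CPM in CePPy libraries 1, 2 and 3, against 324, 250 and 198 CPM in vehicle libraries 1, 2 and 3. CePPy library 2 lay under vehicle library 1, so the groups overlapped, and the log2 fold change was 0.64 ± 0.20 (SE; adjusted p 0.165 in edgeR, 0.0236 in DESeq2). Cyp4a31 had a log2 fold change of 0.31 ± 0.16 (SE) with overlap. The rare copy Cyp4a32 had 10.2, 6.33 and 5.00 CPM in CePPy and 4.96, 2.97 and 2.76 CPM in vehicle, a log2 fold change of 1.01 ± 0.33 (SE) with the nearest libraries almost level.

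Cyp4a10, Cyp4a31 and Cyp4a32 are 96% to 97.2% identical to each other in the pairs that include Cyp4a10, and 20.06% of the 100-base stretches of Cyp4a32 occur in other genes, so the value of Cyp4a32 alone is uncertain. Summed over these 3 copies, the level was 753, 529 and 732 CPM in CePPy libraries 1, 2 and 3, against 573, 463 and 384 CPM in vehicle libraries 1, 2 and 3. CePPy library 2 lay below vehicle library 1, so the groups overlapped, and the log2 ratio was 0.50. With Cyp4a14, which is distinct in sequence, added to them, the level was 1191, 924 and 1042 CPM in CePPy libraries 1, 2 and 3, against 785, 717 and 534 CPM in vehicle libraries 1, 2 and 3. These sums of 4 genes did not overlap, and the log2 ratio was 0.63. The whole Cyp4a subfamily, with both directions added up, had a log2 ratio of 0.35.

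Cyp4b1, next to Cyp4a32 and the most abundant P450 gene, had 1684, 894 and 1244 CPM in CePPy libraries 1, 2 and 3, against 966, 900 and 1107 CPM in vehicle libraries 1, 2 and 3. CePPy library 2 was the lowest of all 6 libraries and CePPy library 1 the highest. The log2 fold change of 0.36 ± 0.21 (SE) passed neither test (adjusted p 0.390 in edgeR, 0.308 in DESeq2) and was 0.11 without CePPy library 1.

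**Figure D5:**
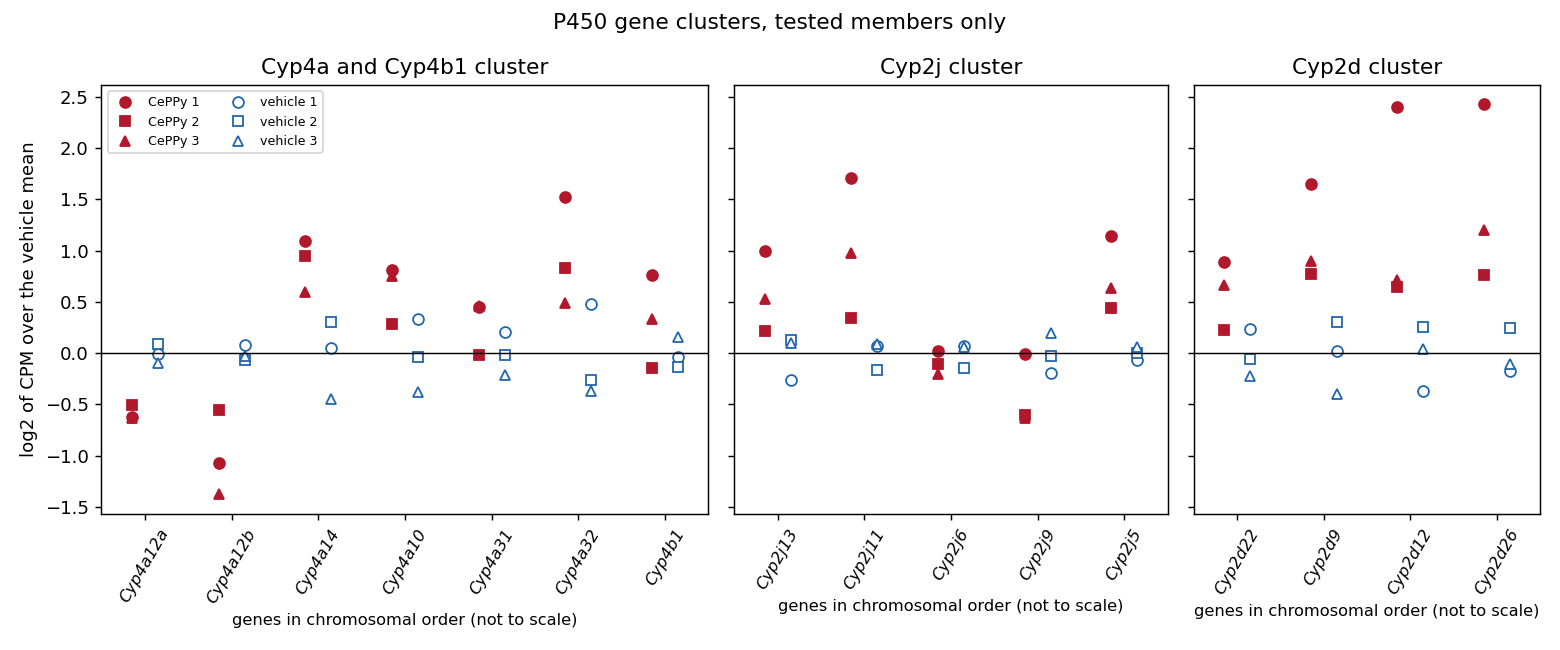
Log2 of CPM over the vehicle mean for the tested genes of the Cyp4a and Cyp4b1, Cyp2j and Cyp2d clusters, in chromosomal order and not to scale, with filled red symbols for CePPy and open blue symbols for vehicle. The 2 Cyp4a12 genes at the left end lie below 0 in every CePPy library while Cyp4a14, Cyp4a10 and Cyp4a32 lie above 0 in all 3, and the 4 Cyp2d genes lie above 0 in all 3.

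The Cyp4f genes, hydroxylases of leukotriene B and fatty acids, had 5 of 9 members tested and no common direction. Their sum was 46.1, 41.3 and 42.9 CPM in CePPy and 43.7, 40.6 and 47.7 CPM in vehicle, a log2 ratio of -0.02 with overlap. Cyp4f13, with the highest level per kilobase among them, had a log2 fold change of 0.12 ± 0.14 (SE). Cyp4f16 had 9.73, 11.5 and 11.1 CPM in CePPy and 12.3, 12.1 and 14.7 CPM in vehicle, without overlap but with a log2 fold change of only -0.28 ± 0.13 (SE; adjusted p 0.302 in edgeR). Cyp4f18, known from neutrophils, had -0.34 ± 0.22 (SE), and it overlaps Zfp961 on the other strand, whose reads could be mixed in if strand was not used in counting. Cyp4f17 had 0.11 ± 0.24 (SE). Cyp4f14 had 27, 13 and 9 counts in CePPy libraries 1, 2 and 3 and 35, 4 and 5 in vehicle libraries 1, 2 and 3, and its log2 fold change of 0.17 ± 0.84 (SE) has no fixed sign. Cyp4v3, the counterpart of the human gene of a crystalline retinal dystrophy, had a log2 fold change of -0.16 ± 0.13 (SE).

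The Cyp2a genes are another case where copies matter. Cyp2a4 encodes a steroid hydroxylase and Cyp2a5 a coumarin hydroxylase, and a change of very few residues is known to set their substrates apart. Cyp2a4 had 217, 106 and 131 CPM in CePPy libraries 1, 2 and 3, against 64.4, 111 and 67.1 CPM in vehicle libraries 1, 2 and 3. Cyp2a5 had 85.6, 131 and 103 CPM in CePPy libraries 1, 2 and 3, against 98.5, 126 and 191 CPM in vehicle libraries 1, 2 and 3. Both overlapped between groups, with a log2 fold change of 0.90 ± 0.30 (SE) for Cyp2a4 and -0.38 ± 0.25 (SE) for Cyp2a5, and neither edgeR (adjusted p 0.173 and 0.431) nor DESeq2 (adjusted p 0.195 and 0.384) called them. Their sum overlapped too, with a log2 ratio of 0.23.

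Cyp2a4 took 71.7%, 44.9% and 56.0% of the pair's counts in CePPy libraries 1, 2 and 3, and 39.5%, 46.9% and 26.0% in vehicle libraries 1, 2 and 3. The transcripts are 98.2% identical, and the coding sequences of 1485 bases differ at 23, of which 5 fall in the stretch shown, coding positions 580 to 669. This stretch too was picked as the 90-base stretch with the most differences. In the genome it lies on the plus strand of GRCm38 at chr7:26309014-26310720 for Cyp2a4 and chr7:26837177-26838882 for Cyp2a5, with an intron inside that is not printed. Capitals mark the bases that differ.
Cyp2a4 coding stretch: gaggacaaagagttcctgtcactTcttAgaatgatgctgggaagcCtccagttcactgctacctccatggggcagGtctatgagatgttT
Cyp2a5 coding stretch: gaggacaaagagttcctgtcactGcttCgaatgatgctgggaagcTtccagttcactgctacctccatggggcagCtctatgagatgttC
Only 11.2% of the 100-base stretches of Cyp2a4 occur in Cyp2a5, less than for the Cyp4a12 pair. The promoters of the copies are alike as well. The RefSeq windows at chr7:26306942-26307241 for Cyp2a4 and chr7:26835089-26835388 for Cyp2a5, both on the plus strand of GRCm38.p6, share 294 bases, differ at 5 and have 2 gap bases (98.3% identity). Capitals mark the same motifs as above, which both windows hold at matching places. The half-site AGGTCA, printed as TGACCT, lies after the start and not before it. It begins at base 31 in Cyp2a4 and at base 30 in Cyp2a5, just past an ATG.
Cyp2a4 promoter: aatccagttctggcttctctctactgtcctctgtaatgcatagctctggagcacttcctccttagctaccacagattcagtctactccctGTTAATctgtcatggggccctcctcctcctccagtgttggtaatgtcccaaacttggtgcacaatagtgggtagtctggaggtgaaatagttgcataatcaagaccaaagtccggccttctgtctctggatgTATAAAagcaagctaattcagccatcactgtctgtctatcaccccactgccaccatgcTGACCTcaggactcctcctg
Cyp2a5 promoter: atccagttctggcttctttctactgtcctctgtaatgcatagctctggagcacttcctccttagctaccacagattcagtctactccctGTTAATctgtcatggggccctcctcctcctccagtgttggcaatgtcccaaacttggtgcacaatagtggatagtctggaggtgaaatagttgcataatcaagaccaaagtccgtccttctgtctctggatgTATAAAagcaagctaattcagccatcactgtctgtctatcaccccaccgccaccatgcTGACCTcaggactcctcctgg

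The 4 tested sterol hydroxylase genes passed neither edgeR nor DESeq2. Cyp7b1, which inactivates oxysterols and androgen-like steroids, had 47.3, 22.5 and 15.3 CPM in CePPy libraries 1, 2 and 3, against 7.27, 14.5 and 6.36 CPM in vehicle libraries 1, 2 and 3. CePPy library 3 was only just above vehicle library 2. The log2 fold change was 1.6 ± 0.46 (SE; adjusted p 0.146 in edgeR, 0.0840 in DESeq2), and it was 1.01 without CePPy library 1. Cyp27a1, the mitochondrial sterol hydroxylase, had 28.9, 17.8 and 19.9 CPM in CePPy and 13.6, 15.1 and 15.8 CPM in vehicle, a log2 fold change of 0.58 ± 0.18 (SE; adjusted p 0.165 in edgeR, 0.0605 in DESeq2) without overlap that was 0.35 without CePPy library 1. Cyp39a1, an oxysterol hydroxylase, had 0.17 ± 0.17 (SE; adjusted p 0.615 in edgeR, 0.698 in DESeq2). Cyp46a1 had 0.85 ± 0.45 (SE; adjusted p 0.338 in edgeR, 0.469 in DESeq2) on only 10 to 25 counts per library.

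Of the vitamin and retinoid genes, Cyp2r1, which starts the activation of vitamin D, had a log2 fold change of -0.39 ± 0.29 (SE). Cyp26b1, which breaks down retinoic acid, had 14.4, 4.79 and 7.87 CPM in CePPy libraries 1, 2 and 3 and 7.18, 4.91 and 7.58 CPM in vehicle libraries 1, 2 and 3. Its log2 fold change of 0.46 ± 0.38 (SE) rests on CePPy library 1 and was -0.05 without it.

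Among the xenobiotic P450 genes, Cyp3a13 had the lowest log2 fold change of all tested members. It had 0.844, 1.99 and 1.53 CPM in CePPy libraries 1, 2 and 3, against 2.62, 3.06 and 3.71 CPM in vehicle libraries 1, 2 and 3. The groups did not overlap, and the log2 fold change was -1.10 ± 0.35 (SE; adjusted p 0.165 in edgeR, 0.0620 in DESeq2). Cyp1a1, the classic target of the aryl hydrocarbon receptor, had 24, 33 and 17 counts in CePPy and 16, 15 and 15 in vehicle, a log2 fold change of 0.67 ± 0.40 (SE) that passed neither test. Cyp1b1, another target of that receptor, had -0.12 ± 0.10 (SE), and Cyp2s1 had 0.08 ± 0.10 (SE). Cyp2f2, known for naphthalene oxidation in lung, had 0.45 ± 0.45 (SE). Cyp2u1, a fatty acid hydroxylase, had 0.29 ± 0.43 (SE) and changes sign without CePPy library 3. Cyp20a1, an enzyme with no settled substrate, had 31.1, 38.2 and 31.8 CPM in CePPy and 39.2, 40.8 and 39.8 CPM in vehicle, a log2 fold change of -0.25 ± 0.10 (SE) without overlap. Of these and the genes above, Cyp2a4, Cyp2f2, Cyp2s1 and Cyp2u1 share exon bases with a gene on the other strand, and Cyp2d9, Cyp2d12 and Cyp4v3 with a gene on the same strand, so their counts could hold reads of those neighbours.

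P450 enzymes depend on other genes for electrons and heme. Of 9 genes of redox partners and heme supply, 2 had a log2 fold change above 0 and 7 below, with a median of -0.02 and 0 called by edgeR. Their summed level was 2250, 1806 and 1823 CPM in CePPy and 2050, 1979 and 2154 CPM in vehicle, with CePPy library 1 the highest of all. Por, the oxidoreductase that feeds electrons to microsomal P450 enzymes, had 287, 247 and 256 CPM in CePPy and 290, 268 and 285 CPM in vehicle, a log2 fold change of -0.09 ± 0.09 (SE). Alas1, the first enzyme of heme synthesis, had -0.38 ± 0.16 (SE) with overlap. The cytochrome gene Cyb5b was higher without overlap, at 333 to 455 CPM in CePPy and 290 to 315 CPM in vehicle, a log2 fold change of 0.30 ± 0.13 (SE). Cyb5r3 and Fech were lower without overlap, by a log2 fold change of -0.23 and -0.20.

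Of 18 receptors and regulators of P450 genes, 12 had a log2 fold change above 0 and 6 below, with a median of 0.13 and 0 called by edgeR. Ppara had a log2 fold change of 0.22 ± 0.20 (SE), Hnf4a 0.06 ± 0.15 (SE) and Ahr 0.17 ± 0.11 (SE). Nr1i3 had the value furthest from 0, -2.70 ± 0.96 (SE; adjusted p 0.198 in edgeR, 0.0473 in DESeq2). It rests on few counts and overlapped, with 0.225, 0.372 and 0.167 CPM in CePPy and 0.111, 2.03 and 2.94 CPM in vehicle. Cebpb, an acute-phase regulator, had 24.5, 39.2 and 31.5 CPM in CePPy and 62.6, 60.3 and 70.7 CPM in vehicle. It was lower without overlap, with a log2 fold change of -1.02 ± 0.16 (SE) and an adjusted p of 0.0813 in edgeR and 2.47e-06 in DESeq2.

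Of 8 enzymes that act on P450 products or are related to P450 genes, 3 had a log2 fold change above 0 and 5 below, with a median of -0.09. Ephx2, which hydrolyses the epoxides made by Cyp2c and Cyp2j enzymes, had 305, 197 and 256 CPM in CePPy and 228, 189 and 229 CPM in vehicle, a log2 fold change of 0.23 ± 0.16 (SE) with overlap. Cyp51, the sterol demethylase of cholesterol synthesis whose symbol the rule does not match, had a log2 fold change of 0.80 ± 0.26 (SE; adjusted p 0.168 in edgeR, 0.0232 in DESeq2). The carbonyl reductase gene Cbr1 had -0.89 ± 0.19 (SE; adjusted p 0.104 in edgeR, 0.000570 in DESeq2), with 54.1, 45.8 and 51.8 CPM in CePPy and 125, 79.1 and 75.7 CPM in vehicle.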

How the data were processed

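RNA of 6 kidney libraries was sequenced. Extraction was by TRIzol and library preparation by a Yeasen mRNA kit, per the labels' protocols. Whole-number read counts per gene, with no normalization, were deposited by the authors in 1 table. TopHat2, Cufflinks, DESeq and the build GRCm38 are named, without versions or roles, in the submitters' processing notes. How reads were counted, and how strand and multiple matches were treated, is not stated there. Groups were taken from the sample titles.

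The filterByExpr function of edgeR 4.0.16 in R 4.3.3 kept 15416 genes, and TMM scaling gave factors of 0.9504 to 1.0289. Groups were compared with the edgeR quasi-likelihood test, with treatment as the only term, 4 residual degrees of freedom and a common biological coefficient of variation of 0.186. P-values were adjusted by Benjamini-Hochberg over all genes tested. The alternatives were DESeq2 1.42.0, limma-voom (limma 3.58.1) with and without sample weights, other scalings, no filter, a replicate block and each library left out. The fitting script was tested on simulated counts with known changes. Log2 fold changes are CePPy over vehicle. CPM was computed on library sizes after TMM scaling, and levels per kilobase use GENCODE M21 exon lengths. Transcripts were compared with BLAST+ 2.17.0, and promoter windows came from RefSeq (GRCm38.p6).

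The rule named the member with the highest level per kilobase in each family, the 10 tested members with the lowest edgeR p on each side of 0, and 31 genes whatever their values. It gave 40 names, of which 36 were tested, and the other tested members are given beside them. The members, gene lists and tests were chosen with earlier results of these data known. Every pair of libraries of a group differed by more than counting noise, so none was treated as a copy of another; this does not show that they are separate animals.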

Additional observations from a re-analysis of the deposited data

How the results depend on the processing

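RLE and upper-quartile scaling and limma-voom changed no call and no direction among the 36 tested members that the naming rule gave. The remaining 4 tested members and the other lists were fitted under them too, but are not compared here one by one. Where edgeR called 0 P450 genes, DESeq2 called 11 higher and 2 lower, with 43 of 64 fitted members above 0. Without a filter on low counts 1 was called higher (Cyp2e1) and 1 lower (Cyp4a12a), again with 43 of 64 above 0. Limma-voom with sample weights called 2 higher (Cyp2e1 and Cyp2j5) and 2 lower (Cyp4a12a and Cyp4a12b). No share of all genes is given for this fit, for the fit without a filter or for the 43 of 64. These numbers are therefore not set against a background. With 1 library left out, edgeR called 0 to 7 higher and 0 to 2 lower, all of them without CePPy library 2, and 25 to 28 members stood above 0. The median log2 fold change then ranged from 0.18 without CePPy library 1 to 0.56 without CePPy library 2. The log2 ratios of subfamily sums then ran between 0.82 and 1.56 for Cyp2d, 0.49 and 0.88 for Cyp2j, 0.24 and 0.44 for Cyp4a, and -0.07 and 0.04 for Cyp4f. The log2 fold change turned round for Cyp4f14 (-0.358 without CePPy library 1, -0.261 without vehicle library 2 and -0.221 without vehicle library 3, with a range up to 1.791), for Cyp26b1 (-0.053 without CePPy library 1, up to 0.763), for Cyp2u1 (-0.05 without CePPy library 3, up to 0.626), for Cyp2c69 (-0.15 without CePPy library 1) and for Cyp4f17 (-0.067 without vehicle library 3 and -0.025 without CePPy library 2). The cause of these differences between settings was not tested. With the replicate number as a block, 0 members were called, 28 stood above 0 and the median was 0.41. The deviations of same-numbered libraries from their group means correlated at -0.15, 0.098 and -0.021, which gives no sign of pairing. With 3 libraries per group this cannot show that there was none. With 4 residual degrees of freedom, members below about 1 CPM, such as Cyp1a1, Cyp4f14 and Cyp46a1, rest on few counts.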
